A study of Mus musculus with 21 samples.

Results

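The distal nephron and collecting duct genes are 42 mouse genes whose transcripts mark the tubule from the thick ascending limb to the collecting duct. They were read from RNA of sorted kidney macrophages. Members were taken by symbol from the deposited count table, where lines that share a symbol were summed, and all 42 were found among 34236 symbols. They comprised 9 genes of the thick ascending limb, 7 of the distal convoluted and connecting tubule, 11 of the principal cell, 7 of the intercalated cell and 8 that are shared along the distal nephron or with other epithelia. One member, Tmem52b, is written D630042F21Rik in the table and keeps that name here.

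The libraries came from male C57BL/6J mice of 24 weeks. RAS (renal artery stenosis) was made with a cuff on the right renal artery, and in Sham mice the artery was exposed without a cuff. Cells were sorted from digested kidneys as F4/80+CD64+ macrophages in 3 populations, namely kidney-resident macrophages (KRM) and the monocyte-derived CD11chiMϕ and CD11cloMϕ. KRM had 4 Sham and 3 RAS libraries, CD11chiMϕ had 3 and 4, and CD11cloMϕ had 3 and 4. Libraries are named by population, treatment and replicate number. The study describes independent experiments with several mice in each group, but the labels do not tie a library to an animal, so p-values measure the spread between these libraries.

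The thick ascending limb reabsorbs sodium chloride without water and makes the urinary protein uromodulin. The distal convoluted tubule fine-tunes sodium, calcium and magnesium, principal cells take up sodium and water under aldosterone and vasopressin, and intercalated cells secrete acid or bicarbonate. These are epithelial cells, which lack the CD45 used in the sort. In RNA from sorted cells, fewer cells of a type and less RNA per cell cannot be told apart.

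Library totals ran from 6891148 to 18592395 estimated counts, and KRM Sham 3 was the largest. A count of 3 corresponded to 0.161 to 0.435 CPM (counts scaled to a common library total), which is the most that a value of 0 allows in a library. Markers of macrophage identity were abundant throughout, with a summed level of 89421 to 116389 CPM in KRM Sham, 63123 to 91056 CPM in KRM RAS and 29270 to 95925 CPM in the other libraries. The lowest of these was CD11chi Sham 3, the library with the most proximal tubule RNA, at 63512 CPM over 25 proximal genes. Its third-numbered Sham counterparts came next, with 15253 CPM in CD11clo Sham 3 and 11871 CPM in KRM Sham 3, and the proximal sum in the other 18 libraries was 5600 CPM or less. Counts of members called are therefore also given without the third Sham libraries or without KRM RAS 2 and KRM RAS 3 in most comparisons. Other gene lists were not refitted, except the proximal genes without KRM Sham 3.

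Distal nephron transcripts were concentrated in a pair of libraries, KRM RAS 2 and KRM RAS 3. Without Wnk1, which is expressed in many cell types, the 41 remaining members summed to 13364 CPM in KRM RAS 2 and 9883 CPM in KRM RAS 3, but to 390 CPM in KRM RAS 1. In KRM Sham the sums were 81.2, 66.5, 595 and 57.2 CPM in replicates 1 to 4. The mean was 7879 ± 6715 CPM (SD, n = 3) in KRM RAS and 199.96 ± 263 CPM (SD, n = 4) in KRM Sham. KRM RAS 1 lay below KRM Sham 3, so the groups overlapped in this sum. The KRM RAS 1 column does not correspond between the deposited tables (Spearman 0.688), so which library its counts hold is uncertain. The next highest library was CD11chi Sham 3 at 5711 CPM, followed by CD11clo Sham 3 at 1500 CPM, and the remaining CD11chiMϕ and CD11cloMϕ libraries held 47.2 to 644 CPM. KRM RAS 2 and KRM RAS 3 were the 2 highest of the 21 libraries for 37 of the 42 members, and CD11chi Sham 3 came next after them for 32 of those 37. Cldn10, Slc12a3, Pvalb and Fxyd2 were highest in CD11chi Sham 3 instead, and Wnk1 ran the other way. Both libraries held the members in similar amounts, with a median ratio of KRM RAS 2 to KRM RAS 3 of 1.32 and a range from 0.964 to 2.58.

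**Figure D1:**
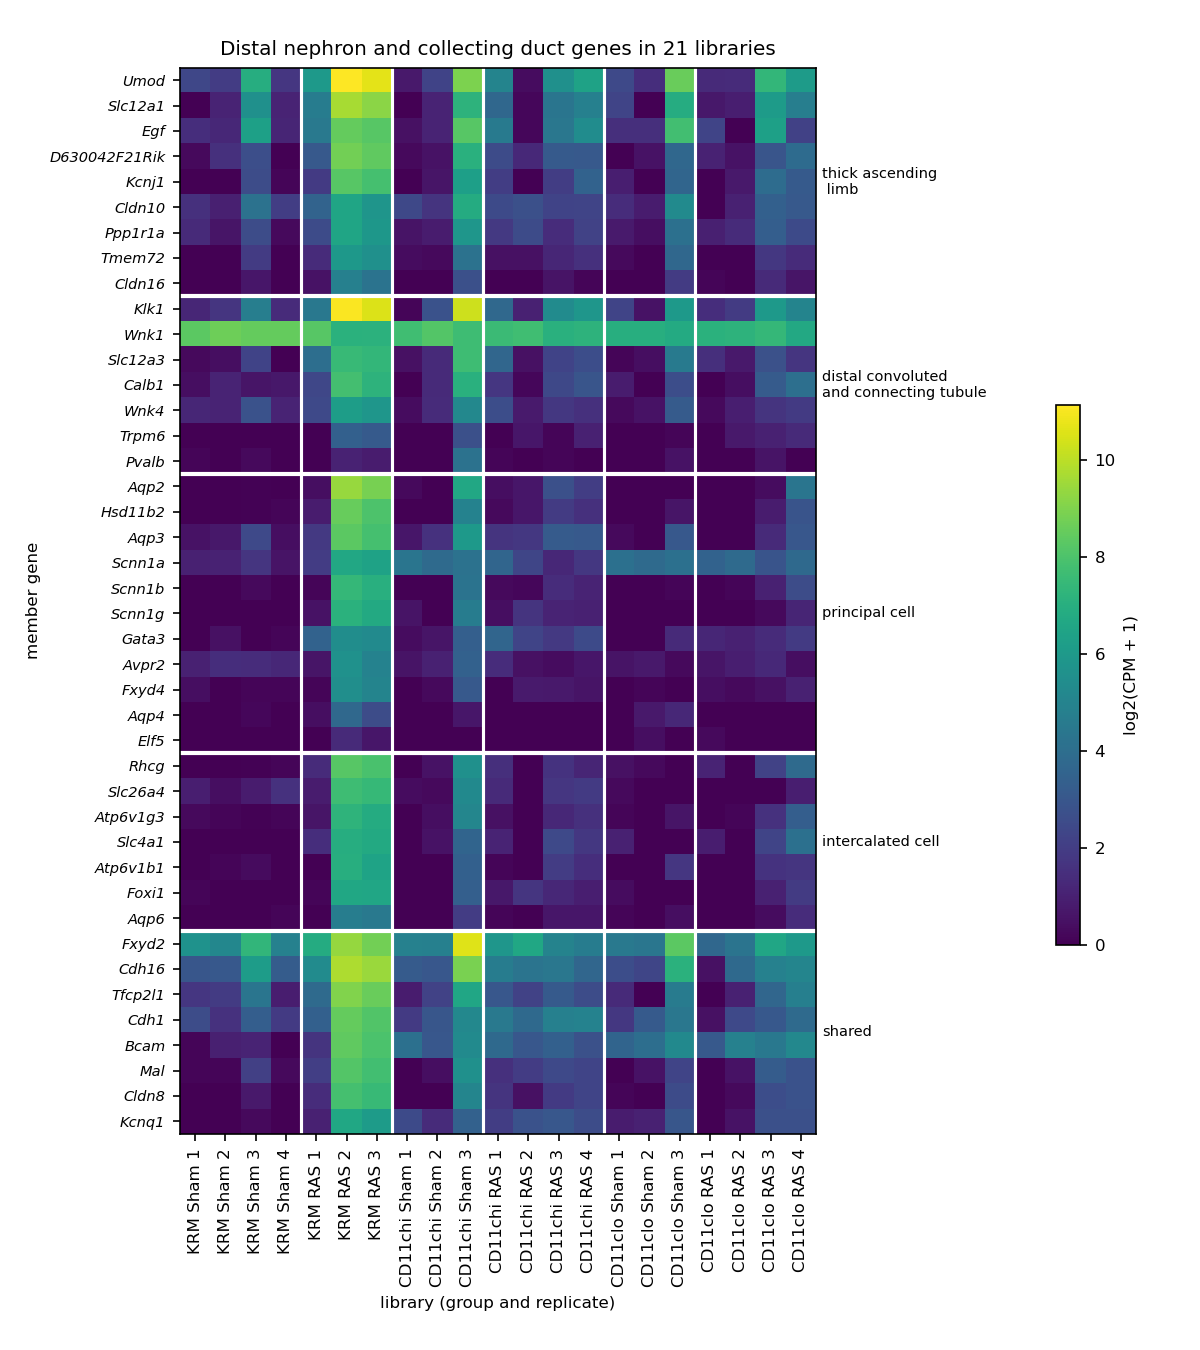
Level of each member (rows, grouped by segment and ordered by mean level) in each of the 21 libraries (columns) as log2(CPM + 1), from 0 in dark blue upwards to yellow. The columns of KRM RAS 2, KRM RAS 3 and CD11chi Sham 3 are bright over nearly all rows, while Wnk1 is bright in every column and Scnn1a is present in all CD11cloMϕ libraries.

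The genes of the thick ascending limb were led by Umod, which encodes uromodulin. Its level was 4.12, 2.90, 121 and 2.40 CPM in the KRM Sham replicates and 62.0, 2252 and 1630 CPM in the KRM RAS replicates. Slc12a1, the apical sodium-potassium-chloride cotransporter that loop diuretics block, had 0, 1.18, 46.7 and 1.15 CPM in KRM Sham and 24.4, 815 and 587 CPM in KRM RAS. In both genes KRM Sham 3 exceeded KRM RAS 1, and neither passed the test of RAS against Sham in KRM (log2 fold change 5.30 ± 1.74 SE, adjusted p = 0.0827 for Umod and 5.21 ± 1.77, adjusted p = 0.0898 for Slc12a1, edgeR). Egf, the precursor of epidermal growth factor, had 1.72, 1.39, 79.7 and 1.25 CPM in KRM Sham and 21.6, 359 and 304 CPM in KRM RAS, and did not pass either (adjusted p = 0.17, edgeR). Umod (chromosome 7, 119462711 to 119479282, minus strand) and Slc12a1 (chromosome 2, 125152505 to 125230002, plus strand) are shown with the bases that lie upstream of their first exon, because they are the leading members of this segment. Capitals mark the forkhead core TGTTTAC, and both sequences are from RefSeq on GRCm38.p6, the assembly of mm10.
Umod, chr7:119479313-119479512, minus strand: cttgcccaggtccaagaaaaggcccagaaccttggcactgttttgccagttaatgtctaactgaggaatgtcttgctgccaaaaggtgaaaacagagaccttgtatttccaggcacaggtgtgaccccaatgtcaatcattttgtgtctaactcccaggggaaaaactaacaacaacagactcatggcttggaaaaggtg
Slc12a1, chr2:125152350-125152499, plus strand: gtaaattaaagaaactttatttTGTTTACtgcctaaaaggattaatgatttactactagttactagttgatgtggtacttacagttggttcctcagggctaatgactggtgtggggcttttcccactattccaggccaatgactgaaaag

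D630042F21Rik (Tmem52b), Kcnj1 and Ppp1r1a were the members of the thick ascending limb that rose in KRM RAS. D630042F21Rik, a membrane protein gene, had 0.229, 1.93, 5.49 and 0 CPM in KRM Sham and 7.59, 430 and 343 CPM in KRM RAS, so the groups did not overlap (log2 fold change 6.89 ± 1.48, adjusted p = 0.0347, edgeR). Kcnj1, the potassium channel ROMK, had 0, 0, 5.06 and 0.104 CPM in KRM Sham and 2.68, 306 and 231 CPM in KRM RAS (6.79 ± 1.69, adjusted p = 0.0466, edgeR). Ppp1r1a, which encodes protein phosphatase inhibitor 1, rose by 4.69 ± 1.12 (adjusted p = 0.0425, edgeR). For Kcnj1 and Ppp1r1a, KRM RAS 1 was below KRM Sham 3. The claudins Cldn10 and Cldn16 form the paracellular cation pathways of this segment. Cldn10 reached 114 CPM in CD11chi Sham 3, more than the 92.6 CPM of KRM RAS 2, and its log2 fold change in KRM was 3.09 ± 1.02 (adjusted p = 0.0829, edgeR). Cldn16 was too low to be tested in KRM, with 27.7 and 17.9 CPM in KRM RAS 2 and 3 and 0 to 0.592 CPM in the other KRM libraries. Tmem72, a kidney membrane protein gene, had a log2 fold change of 5.36 ± 1.53 that did not pass (adjusted p = 0.0628, edgeR).

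In the distal convoluted and connecting tubule, Klk1, Slc12a3, Calb1 and Wnk4 rose in KRM RAS. Slc12a3, the thiazide-sensitive sodium-chloride cotransporter, had 0.229, 0.322, 3.71 and 0 CPM in KRM Sham and 15.4, 180 and 163 CPM in KRM RAS. Every KRM RAS library was above every KRM Sham library, and the log2 fold change was 6.48 ± 1.21 (adjusted p = 0.027, edgeR). Calb1, the calcium-binding protein calbindin, had 0.343 to 1.18 CPM in KRM Sham and 4.24, 220 and 147 CPM in KRM RAS (7.48 ± 1.24, adjusted p = 0.0231, edgeR). Klk1, a tissue kallikrein, had 1.26, 2.25, 26.2 and 1.57 CPM in KRM Sham and 20.8, 2121 and 1476 CPM in KRM RAS (7.18 ± 1.69, adjusted p = 0.0416, edgeR). Klk1 belongs to a tandem family of close copies, so its counts may include reads of its neighbours. Wnk4, a kinase that regulates the cotransporter, rose by 4.11 ± 0.97 (adjusted p = 0.0414, edgeR). Trpm6, the apical magnesium channel, was at 0 in all KRM Sham libraries and in KRM RAS 1 and at 9.54 and 7.82 CPM in KRM RAS 2 and 3, which is at least 92.0-fold higher in RAS when the counts of a group are pooled over its summed library totals and KRM Sham is set to a floor of 3 counts over the group. Pvalb, the calcium-binding parvalbumin of the early distal convoluted tubule, reached 17.4 CPM in CD11chi Sham 3 and 1.10 and 0.823 CPM in KRM RAS 2 and 3.
Slc12a3 (chromosome 8, 94329201 to 94366214, plus strand) did not overlap between the KRM groups, and the bases before its first exon held none of the motifs searched.
Slc12a3, chr8:94328958-94329157, plus strand: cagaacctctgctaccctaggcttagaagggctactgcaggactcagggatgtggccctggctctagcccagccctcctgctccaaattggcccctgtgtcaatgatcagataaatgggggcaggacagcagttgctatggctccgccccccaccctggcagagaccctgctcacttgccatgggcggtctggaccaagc

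Wnk1 was the member that moved against the others. This kinase acts upstream of the sodium-chloride cotransporters, and besides a short form of the distal convoluted tubule it has a long form in most tissues, which gene counts do not separate. It was at 323, 411, 368 and 359 CPM in KRM Sham and at 302, 138 and 143 CPM in KRM RAS, so all RAS libraries were below all Sham libraries. The log2 fold change of -0.98 ± 0.28 did not pass the test (adjusted p = 0.0612, edgeR), and 5.78% of genes with a count were likewise lower in every KRM RAS library than in every KRM Sham library.

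The principal cell genes Aqp2 and Hsd11b2 were near absent from KRM Sham. Aqp2, the vasopressin-regulated water channel, had 1 count in the KRM Sham group, in KRM Sham 3 (0.0538 CPM), and 0.335, 684 and 468 CPM in KRM RAS. The ratio of pooled counts, each group's counts over its summed library totals, was 18350, with a 95% counting interval from 3293 to 724851 that covers counting error only. Hsd11b2, the enzyme that protects the mineralocorticoid receptor from glucocorticoids, had 0, 0, 0.0538 and 0.104 CPM in KRM Sham and 0.781, 368 and 262 CPM in KRM RAS, a ratio of pooled counts of 5017 (2 counts in Sham, counting interval 1388 to 41435). Both genes were below the count minimum in too many libraries to be tested. The sequence before Aqp2 (chromosome 15, 99579055 to 99584547, plus strand) is shown because it had the largest ratio of pooled counts of the members with 1 to 3 counts in KRM Sham, and none of the motifs searched occurred in it.
Aqp2, chr15:99578806-99579005, plus strand: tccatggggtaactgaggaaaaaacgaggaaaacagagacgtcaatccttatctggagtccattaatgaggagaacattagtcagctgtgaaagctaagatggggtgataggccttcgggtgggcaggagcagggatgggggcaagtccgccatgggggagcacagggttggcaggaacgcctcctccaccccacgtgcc

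Aqp3, Scnn1a and Gata3 rose among the principal cell genes. Aqp3, the basolateral water channel, had 0.458, 0.644, 4.52 and 0.313 CPM in KRM Sham and 2.57, 323 and 232 CPM in KRM RAS (log2 fold change 6.72 ± 1.48, adjusted p = 0.0361, edgeR). Scnn1a, the alpha subunit of the epithelial sodium channel, had 1.03, 1.07, 2.26 and 0.522 CPM in KRM Sham and 2.90, 100.3 and 83.9 CPM in KRM RAS (5.54 ± 1.07, adjusted p = 0.0286, edgeR). All 3 KRM RAS libraries were above all KRM Sham libraries in Scnn1a. The beta and gamma subunits, Scnn1b and Scnn1g, were not tested in KRM. Scnn1b had 169 and 130 CPM in KRM RAS 2 and 3 and at most 0.215 CPM in the other KRM libraries, while Scnn1g had 137 and 108 CPM there and no count in KRM Sham, at least 1299-fold higher by pooled counts. Gata3, a transcription factor of principal cells and also of T cells and innate lymphoid cells, had 0, 0.429, 0 and 0.104 CPM in KRM Sham and 10.5, 43.3 and 38.8 CPM in KRM RAS (7.89 ± 0.95, adjusted p = 0.0138, edgeR). The summed level of 14 T and innate lymphoid cell genes was highest in KRM RAS 1, at 448 CPM against 154 and 151 CPM in KRM RAS 2 and 3 and 135 to 160 CPM in KRM Sham. Lck and Cd3g, which define T cells, were at 92.9 and 51.5 CPM in KRM RAS 1. Over the 3 RAS libraries together 10 of 13 tested genes of that list were higher, where 7.77% of all genes were. Cd4, the most abundant gene of the list in KRM Sham at 76.6 to 108 CPM, was lower, at 61.9, 22.6 and 27.8 CPM. Lck was at 13.4 and 9.06 CPM in KRM RAS 2 and 3 as well, against 0.645 to 0.966 CPM in KRM Sham. The part of such cells in the Gata3 level was not tested. Avpr2, the vasopressin receptor, had 1.03 to 1.72 CPM in KRM Sham and 0.558, 49.0 and 29.9 CPM in KRM RAS and did not pass (4.13 ± 1.06, adjusted p = 0.0504, edgeR). Fxyd4, a sodium pump regulator, Aqp4, the other basolateral water channel, and Elf5, a transcription factor, were not tested. Aqp4 reached 12.8 and 4.94 CPM in KRM RAS 2 and 3, and Elf5 reached no more than 1.51 CPM anywhere.

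Of the 7 intercalated cell genes, 3 passed the filter on low counts in KRM. Rhcg and Slc4a1 did so through the RAS libraries alone, so their fitted changes and p-values are a description only. Rhcg, an ammonia channel, had 0, 0, 0.0538 and 0.104 CPM in KRM Sham and 1.56, 298 and 241 CPM in KRM RAS (log2 fold change 11.65 ± 1.95, adjusted p = 0.0231, edgeR). With 2 counts in KRM Sham, its ratio of pooled counts was 4296 with a counting interval from 1189 to 35484. Slc4a1, the chloride-bicarbonate exchanger of acid-secreting intercalated cells and of red cells, had no count in KRM Sham and 1.79, 123 and 109 CPM in KRM RAS, at least 1237-fold higher by pooled counts (adjusted p = 0.0478, edgeR). Slc26a4, the exchanger pendrin of bicarbonate-secreting cells, had 0.915, 0.322, 0.807 and 1.98 CPM in KRM Sham and 0.781, 205 and 178 CPM in KRM RAS (6.94 ± 1.47, adjusted p = 0.0331, edgeR). Markers of both intercalated cell kinds were thus high in KRM RAS 2 and 3, whereas KRM RAS 1 lay within the KRM Sham range for Slc26a4. Slc4a1 also marks red cells, and the summed level of the erythroid genes was 841, 446 and 379 CPM in KRM RAS and 88.7 to 198 CPM in KRM Sham. The erythroid sum was highest in KRM RAS 1, where Slc4a1 was lowest of the RAS libraries. The part of red cells in the Slc4a1 level was not tested. The proton pump subunits Atp6v1g3 and Atp6v1b1 had 149 and 116 CPM and 124 and 87.0 CPM in KRM RAS 2 and 3, against at most 0.558 and 0.269 CPM in the other KRM libraries. Foxi1, the transcription factor that specifies intercalated cells, had 98.2 and 94.99 CPM in those libraries and at most 0.114 CPM in the others. Aqp6, an intracellular aquaporin of acid-secreting cells, had 25.7 and 21.5 CPM there and at most 0.104 CPM in the others. None of these 4 genes passed the filter on low counts in KRM. Atp6v1b1 (chromosome 6, 83742990 to 83758855, plus strand) is shown because its upstream bases hold the forkhead core, in capitals. It begins 98 bases before the start that RefSeq gives, which is the base after 83743016 and lies inside the range above.
Atp6v1b1, chr6:83742767-83742966, plus strand: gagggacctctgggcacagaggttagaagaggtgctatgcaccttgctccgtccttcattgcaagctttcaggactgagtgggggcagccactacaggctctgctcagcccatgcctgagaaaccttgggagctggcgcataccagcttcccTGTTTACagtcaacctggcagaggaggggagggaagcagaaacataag

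Among the genes shared along the distal nephron, Tfcp2l1, Cdh1, Bcam, Mal and Cldn8 rose in KRM RAS. Tfcp2l1, a transcription factor of distal epithelium, had 2.40, 2.79, 19.1 and 0.835 CPM in KRM Sham and 13.4, 521 and 386 CPM in KRM RAS (log2 fold change 5.50 ± 1.35, adjusted p = 0.0447, edgeR). Cdh1, E-cadherin, had 5.03, 2.04, 9.14 and 2.71 CPM in KRM Sham and 9.82, 363 and 276 CPM in KRM RAS (5.42 ± 1.10, adjusted p = 0.0307, edgeR). The tight junction gene Cldn8 changed by 8.94 ± 1.67 (adjusted p = 0.027), the laminin receptor Bcam by 8.21 ± 1.57 (adjusted p = 0.0282) and the membrane raft protein gene Mal by 7.11 ± 1.52 (adjusted p = 0.0343, edgeR). Fxyd2, the gamma subunit of the sodium pump, is also a proximal gene and had, with Klk1, the highest levels per kilobase of transcript. In KRM RAS 2 it was at 1038 CPM per kb and Klk1 at 2223 CPM per kb, while in CD11chi Sham 3 it was at 2461 and Klk1 at 1305 CPM per kb. It had 49.8, 35.0, 161 and 28.8 CPM in KRM Sham, 114, 656 and 438 CPM in KRM RAS and 1556 CPM in CD11chi Sham 3. Neither Fxyd2 (2.51 ± 0.74, adjusted p = 0.0664) nor Cdh16, kidney-specific cadherin (4.51 ± 1.21, adjusted p = 0.055), passed the test in KRM (edgeR). Kcnq1, a potassium channel, was not tested in KRM, where it had 98.5 and 67.8 CPM in KRM RAS 2 and 3, 1.00 CPM in KRM RAS 1 and at most 0.215 CPM in Sham.

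Over all segments, 27 of the 42 members passed the filter on low counts in KRM, of which 18 were higher in RAS and 0 lower at an adjusted p under 0.05 with edgeR. Over all 12852 genes tested, 7.77% were higher and 1.94% were lower. A total of 26 members had an unadjusted p under 0.05, as did 34% of all genes tested. Log2 fold changes ran from -0.98 to 12.68 with a median of 5.54, where the median of all genes was 0.02. By segment, the members that rose were 3 of 9 in the thick ascending limb, 4 of 7 in the distal convoluted and connecting tubule, 3 of 11 in principal cells, 3 of 7 in intercalated cells and 5 of 8 among the shared genes. Some tested members passed the filter through the RAS libraries alone, such as Rhcg with 2 counts and Slc4a1 with 0 in KRM Sham, so that shares and medians over the tested members are a description only. The 15 that were not tested included 7 principal and 4 intercalated cell genes. With no filter on low counts, 32 of 42 were higher where 6.56% of all genes were, and these included 10 of 11 principal and 7 of 7 intercalated cell genes. DESeq2 gave 24 higher where 15.9% of all genes were, and 1 lower, Wnk1. In 16 members all 3 RAS libraries were above all 4 Sham libraries, as in 13.8% of all genes with a count.

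The call in KRM depended on single libraries. Without KRM RAS 1, 39 of 40 tested members were higher and Wnk1 was lower, while 28.1% of all genes were higher. Without KRM RAS 2 or KRM RAS 3, 0 members were called where 0.177% and 0.184% of all genes were higher. Without KRM Sham 1 or KRM Sham 4, 0 were called (0.172% and 0.251% of all genes), without KRM Sham 2 only 1 was (0.22% of all genes), and without KRM Sham 3 there were 21, where 9.06% of all genes were higher. With KRM RAS 2 and 3 both left out, the median log2 fold change of KRM RAS 1 over KRM Sham was 0.92 and 0 members were called where 1.16% of all genes were higher, in a fit where the 1 RAS library has no spread of its own and is assumed to vary like the Sham libraries. A block on replicate number left 4, where 0.303% of all genes were higher. The fitted change of Slc4a1 depends on the prior count, since KRM Sham held none, and the median of 5.54 is the same with that gene at its lower bound.

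**Figure D2:**
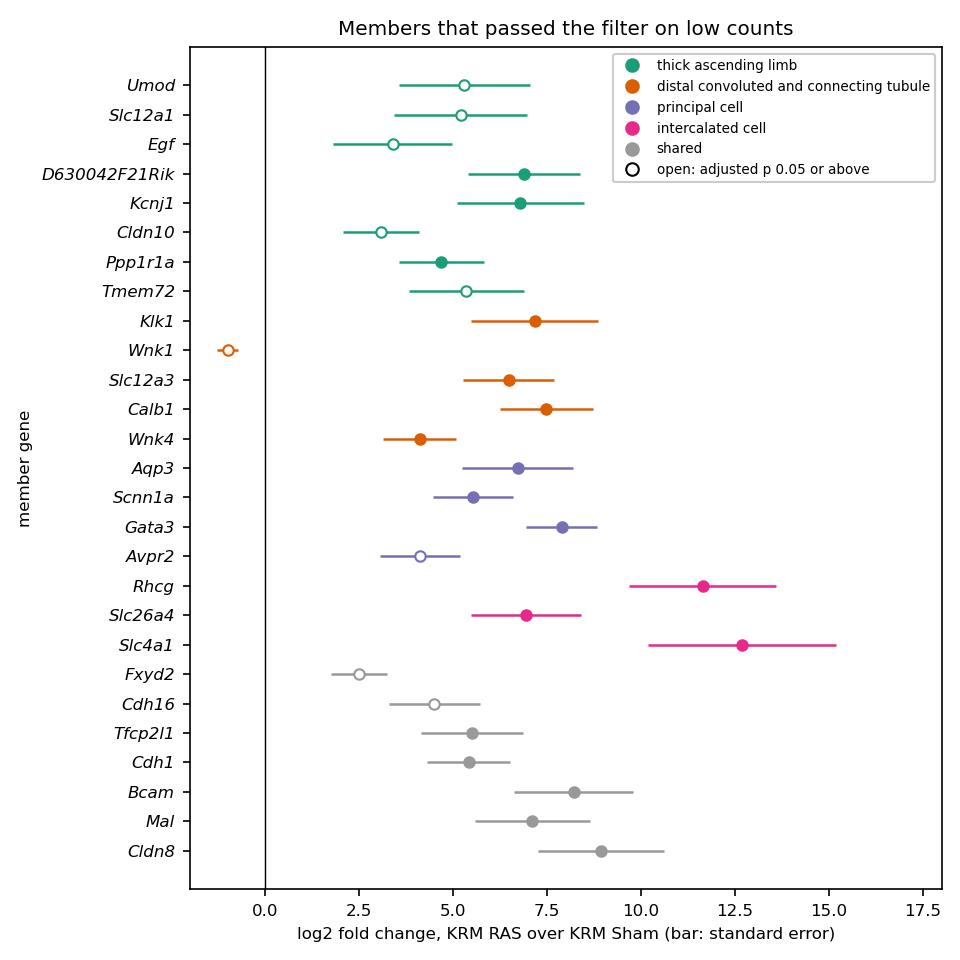
Log2 fold change of RAS over Sham in KRM for the 27 members tested (points, with bars for the standard error of the edgeR fit), coloured by segment, with open points for those at an adjusted p of 0.05 or above. Wnk1 at -0.98 is the only point below 0. Rhcg and Slc4a1, which had almost no counts in KRM Sham, are farthest to the right.

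Distal and proximal nephron genes stood in different proportions in KRM RAS 2 and 3 than in the other libraries. In all 3 populations the third library was the highest of the Sham group in both sums, and the ratio of distal to proximal sum was 0.0296 to 0.138 over the 10 Sham libraries. That ratio, of the 41 distal members to the 25 proximal genes, was 3.40 in KRM RAS 2 and 2.85 in KRM RAS 3, and between 0.0296 and 0.539 in the other 19 libraries. CD11chi Sham 3, the library with the largest proximal sum, had a ratio of 0.0899. The proximal sum was 5600, 3934 and 3464 CPM in the KRM RAS replicates, above the 1933 to 2112 CPM of KRM Sham 1, 2 and 4 and below the 11871 CPM of KRM Sham 3. In the test of RAS against Sham in KRM, 0 of 25 proximal genes were called in either direction, with a median log2 fold change of 0.03. Without KRM Sham 3 there were 10 higher and 0 lower, with a median of 1.16, where 9.06% of all genes were higher. Gpx3 and Slc34a1, proximal genes of antioxidant defence and phosphate uptake, were each highest in KRM Sham 3 among the KRM libraries. Gpx3 was at 1889, 1798 and 1531 CPM in the KRM RAS libraries.

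**Figure D3:**
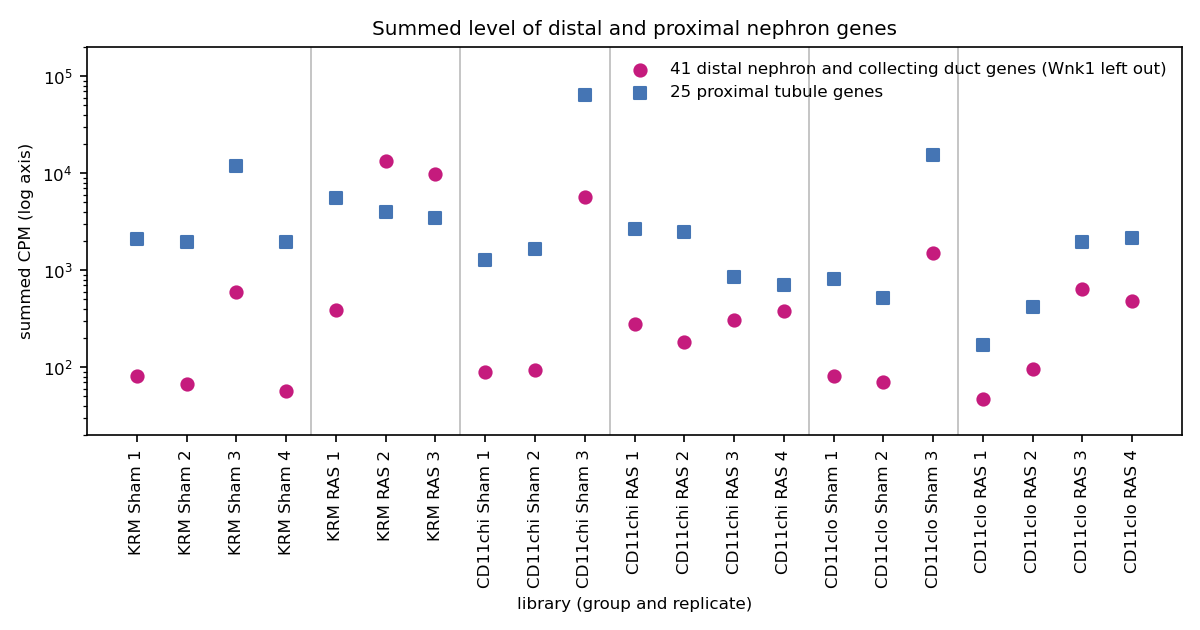
Summed level on a log axis of the 41 distal members other than Wnk1 (circles) and of 25 proximal tubule genes (squares) in each library. Circles lie above squares in KRM RAS 2 and KRM RAS 3 and below them in the other 19 libraries.

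The segments were not mixed alike in the libraries with many distal counts. In KRM RAS 2 the thick ascending limb genes held 33.2% of the 41 members' counts, distal convoluted and connecting tubule genes 19.5%, principal cell genes 14.5% and intercalated cell genes 7.65%, and in KRM RAS 3 the shares were 33.1%, 18.7%, 14.1% and 8.57%. CD11chi Sham 3 had 23.5%, 28.7%, 4.93% and 2.64%. In KRM Sham 3 and CD11clo Sham 3 the thick ascending limb genes held 47.7% and 54.2%, whereas principal cell genes held 1.52% and 1.82% and intercalated cell genes 0.199% and 0.220%. The principal cell sum of CD11clo Sham 3 was nevertheless the highest of its group, at 27.3 CPM, of which Scnn1a was 16.3 CPM and Aqp3 7.29 CPM. For each 100 counts of Umod there were 30.4 counts of Aqp2 in KRM RAS 2, 28.7 in KRM RAS 3 and 20.4 in CD11chi Sham 3, but 0.0444 in KRM Sham 3, 0.54 in KRM RAS 1 and 0 in CD11clo Sham 3. Among the CD11cloMϕ RAS libraries, replicate 4 had 27.8 and replicate 3 had 0.183. Libraries with few distal counts give imprecise shares, since KRM Sham 1, 2 and 4 summed to 57.2 to 81.2 CPM, most of it Fxyd2 and Cdh16.

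**Figure D4:**
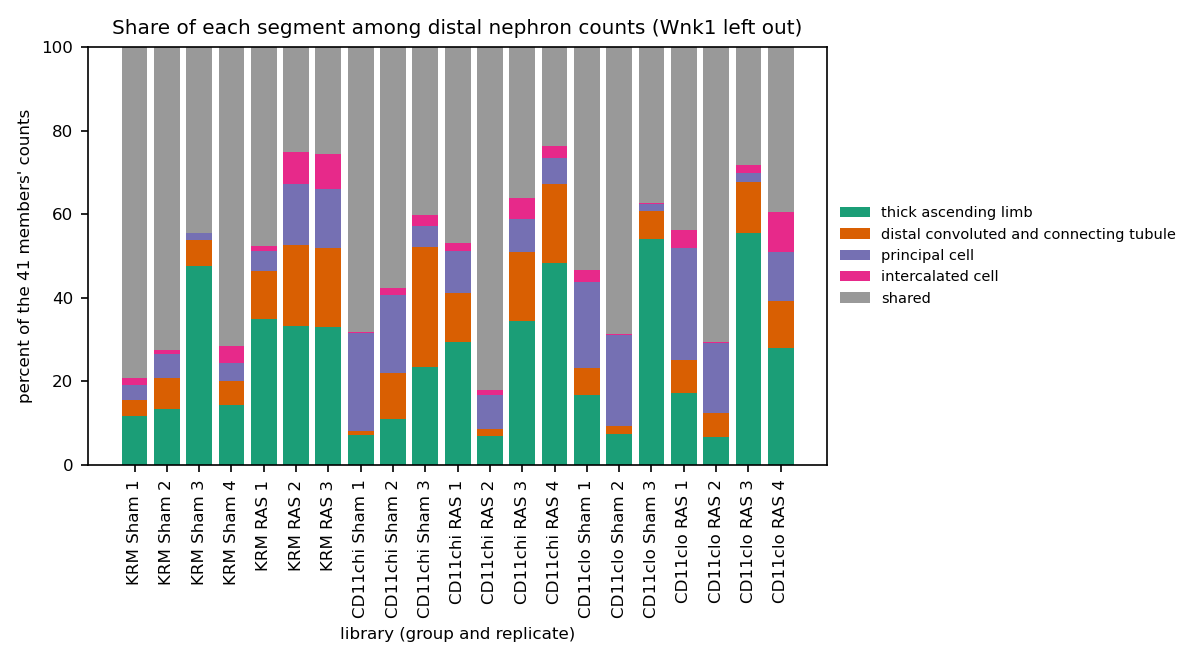
Percent of the counts of the 41 members other than Wnk1 that fell to each segment (stacked bars, 100% per library). Intercalated cell genes take 7.65% and 8.57% in KRM RAS 2 and 3 and 0.199% and 0.220% in KRM Sham 3 and CD11clo Sham 3.

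Other genes of distal tubule function moved in part with the members. Of 66 further distal nephron genes, 43 were tested in KRM, of which 17 were higher and 1 lower in RAS. Over all genes tested, 7.77% were higher and 1.94% lower. The median log2 fold change of the 43 was 3.21. Genes could pass the filter through the RAS libraries alone. Without KRM RAS 2 or without KRM RAS 3, 0.177% and 0.184% of all genes were higher. Epithelial junction and keratin genes had 7 of 10 tested higher, among them Epcam (0.114 to 1.83 CPM in KRM Sham, 5.13, 225 and 158 CPM in KRM RAS, adjusted p = 0.0254), an epithelial adhesion molecule, and the keratin Krt18 (adjusted p = 0.0249, edgeR). Chloride and potassium channel and salt transport genes had 2 of 10 higher, among them Bsnd, a chloride channel subunit with a log2 fold change of 6.93, and 1 lower, the magnesium transporter Slc41a3 (37.5 to 45.2 CPM in KRM Sham, 30.8, 18.97 and 19.97 CPM in KRM RAS, adjusted p = 0.0356, edgeR). Kinases, ubiquitin ligases and hormone receptors of salt handling had 2 of 10 higher, the kinase Stk39 and the prostaglandin receptor Ptger3. Calcium and magnesium genes had 1 of 3 higher, S100g, the intercalated cell pump and acid-base genes 2 of 4, Atp6v0d2 and Car2, and the transcription factors 3 of 6, Ehf, Esrrg and Pax8. The summed level of the 66 genes was 1192 CPM in KRM RAS 1, within the 863 to 1434 CPM of KRM Sham, and 8295 and 6346 CPM in KRM RAS 2 and 3. Kinases, ubiquitin ligases and hormone receptors made up 604 to 685 CPM of this sum in KRM Sham and 670 to 1001 CPM in KRM RAS.

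Fibroblast and endothelial markers also stood higher in KRM RAS 2 and 3, whereas the summed T and innate lymphoid and erythroid genes were highest in KRM RAS 1, as given above. The counts of called genes in this paragraph come from the fit in which 7.77% of all genes were higher and 1.94% lower. These lists were not refitted with libraries left out. Podocyte genes summed to 447 to 811 CPM in KRM RAS, below the 1011 to 1162 CPM of KRM Sham. The summed level of 12 fibroblast and pericyte genes was 24.5 to 45.0 CPM in KRM Sham and 55.0, 872 and 897 CPM in KRM RAS, and 7 of 9 tested were higher, Col3a1 among them (5.26 to 12.4 CPM, and 19.1, 139.6 and 169.6 CPM). For 12 endothelial genes the sum was 54.3 to 72.9 CPM in KRM Sham and 85.9, 356 and 308 CPM in KRM RAS, and 4 of 8 tested were higher. No gene of these 2 lists was at 0 counts throughout KRM Sham or KRM RAS. T and innate lymphoid cell genes had 10 of 13 tested higher and 1, Cd4, lower, erythroid genes 4 of 4 higher (Slc4a1 and Gata3 are each also counted in these lists), and dendritic cell genes 4 of 9 higher and 1 lower. No B cell or neutrophil gene was called (4 tested in each), podocyte genes had 1 of 3 higher and 1 lower, and dissociation stress genes 2 of 14 higher and 3 lower. Macrophage identity genes had 1 of 19 higher, Lyz2, and 3 lower, Fcgr4 and Itgax among them. The part of other cells in the level of the distal genes was not tested.

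In CD11chiMϕ, 34 members were tested between RAS and Sham and 0 were called by edgeR, where 0% of 12739 genes were. At an unadjusted p under 0.05 there were 4, where 9.79% of all genes were, and DESeq2 called 0 members. Levels turned on CD11chi Sham 3. Umod was at 0.713, 3.76 and 494 CPM in CD11chi Sham and at 31.3, 0.290, 47.4 and 85.0 CPM in CD11chi RAS. The median log2 fold change of the tested members was -2.57 with CD11chi Sham 3 and 2.61 without it, and 0 were called either way. Aqp2 followed it, at 0.204, 0 and 101 CPM in Sham and 0.317, 0.580, 5.63 and 3.08 CPM in RAS, and so did Klk1, at 0.102, 5.92 and 1245 CPM in Sham and 12.8, 1.02, 40.2 and 57.4 CPM in RAS. The 41 members other than Wnk1 summed to 90.2 and 93.8 CPM in CD11chi Sham 1 and 2 and to 184 to 379 CPM in the 4 RAS libraries. Scnn1a was the one member whose groups did not overlap, at 19.1, 13.6 and 17.4 CPM in Sham and 11.5, 4.06, 1.38 and 2.47 CPM in RAS, which also holds for 2.02% of all genes with a count in that direction. Its log2 fold change of -1.85 ± 0.61 did not pass (adjusted p = 0.508, edgeR).

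In CD11cloMϕ, 26 members were tested and edgeR called 0, where 0% of 12301 genes were called. Rhcg was the 1 member with an unadjusted p under 0.05, where 8.96% of all genes were, and DESeq2 called 0 members. Without CD11clo Sham 3 the median log2 fold change went from 0.00 to 3.66, again with 0 called. CD11clo RAS 3 and 4 held more of the members, 644 and 480 CPM, than CD11clo RAS 1 and 2, at 47.2 and 95.1 CPM. These 2 libraries differed in kind, since Egf was at 80.7 CPM in replicate 3 and 3.40 CPM in replicate 4, whereas Aqp2 was at 0.302 CPM in replicate 3 and 19.0 CPM in replicate 4. Intercalated cell genes were likewise higher in replicate 4, where Rhcg, Slc4a1 and Atp6v1g3 were at 13.2, 16.4 and 9.06 CPM, than in replicate 3, at 3.53, 3.83 and 2.01 CPM. Fxyd4 was the one member higher in every RAS library than in every Sham library (0.231 to 1.02 against 0 to 0.117 CPM), as were 2.76% of all genes, and it lay near the floor.

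Between populations in Sham kidneys, Scnn1a, Bcam and Kcnq1 were lower in KRM than in CD11chiMϕ. Scnn1a was at 0.522 to 2.26 CPM in KRM Sham and at 13.6 to 19.1 CPM in CD11chi Sham (log2 fold change -3.80 ± 0.48, adjusted p = 0.00826, edgeR). Bcam was at 0.114, 0.966, 1.18 and 0 CPM in KRM Sham and 16.3, 7.18 and 39.7 CPM in CD11chi Sham (-5.26 ± 1.10, adjusted p = 0.0401, edgeR). Kcnq1 had 0, 0, 0.215 and 0 CPM in KRM Sham and 4.69, 1.59 and 10.02 CPM in CD11chi Sham (-6.11 ± 1.12, adjusted p = 0.0266, edgeR). These 3 of 20 tested members were called lower, where 4.12% of all genes were, and they were also the 3 members whose groups did not overlap in this direction (8.84% of all genes with a count). In the other direction Wnk1 alone did not overlap, being above in KRM, as were 8.02% of all genes. The count was 3 without the third libraries of both groups, 1 with a block on replicate number, and 1 without CD11chi Sham 1 or any single KRM Sham library. Unlike Umod or Aqp2, Scnn1a was not highest in CD11chi Sham 3.

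Against CD11cloMϕ in Sham kidneys, Wnk1 was higher and Scnn1a and Bcam were lower in KRM. Wnk1 was at 127, 127 and 112 CPM in CD11clo Sham, below every KRM Sham library (log2 fold change 1.56 ± 0.13, adjusted p = 4.32e-05, edgeR). Scnn1a was at 16.1, 13.4 and 16.3 CPM in CD11clo Sham (-3.62 ± 0.44, adjusted p = 0.000386) and Bcam at 11.1, 15.2 and 37.8 CPM (-5.12 ± 0.89, adjusted p = 0.00237, edgeR). Of 16 members tested, 1 was higher where 19.5% of all genes were, and 2 were lower where 22.3% were, and the count of 3 held when any 1 library was left out. Levels did not overlap in 6 members, with Wnk1, Avpr2 and Slc26a4 above in KRM, as were 17.1% of all genes with a count, and Scnn1a, Bcam and Kcnq1 below, as were 16.8%. Avpr2 was at 0.228 to 0.700 CPM in CD11clo Sham and did not pass the test (1.53 ± 0.56, adjusted p = 0.0592, edgeR). Slc26a4, at 0 to 0.206 CPM, and Kcnq1, at 0.825 to 6.94 CPM, were not tested.

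**Figure D5:**
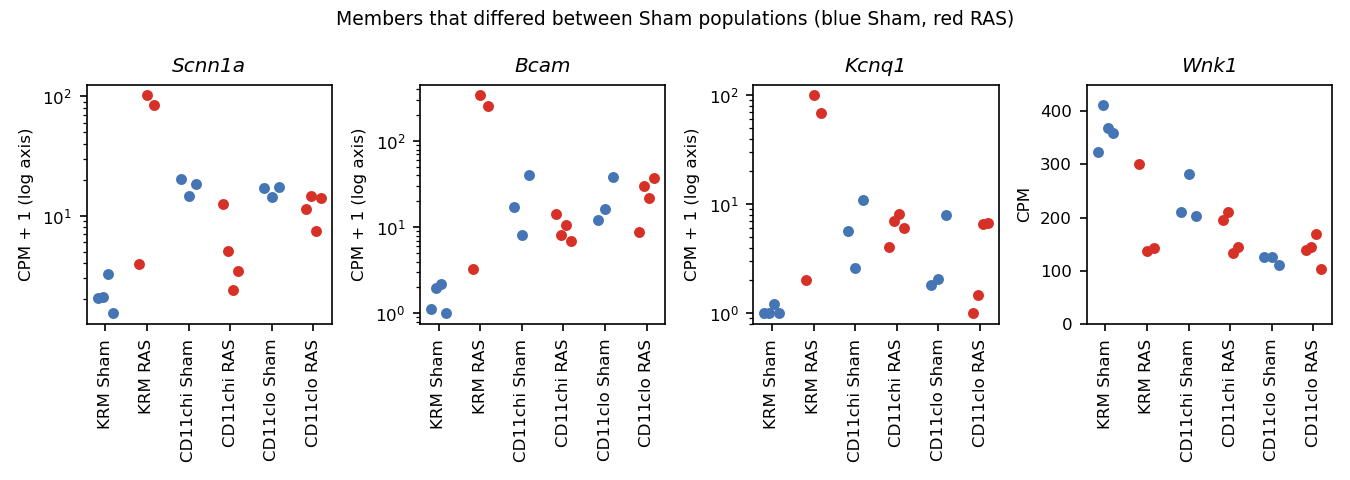
Level per library of Scnn1a, Bcam and Kcnq1 as CPM + 1 on log axes and of Wnk1 as CPM on a linear axis, in the 6 groups (points are libraries, Sham in blue and RAS in red). In Sham, KRM lie below both other populations in Scnn1a, Bcam and Kcnq1 and above them in Wnk1, and KRM RAS 2 and 3 leave that pattern.

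In RAS kidneys, part of the members were higher in KRM than in the other populations, and which comparison called more of them changed with the fit. Against CD11chiMϕ, 21 of 35 tested were higher and 0 lower, where 4.17% of all genes were higher, with a median log2 fold change of 4.90. Cdh16 (4.65 ± 0.86, adjusted p = 0.0282), Tfcp2l1 (5.46 ± 1.02, adjusted p = 0.0282) and Cldn10 (3.36 ± 0.63, adjusted p = 0.0282, edgeR) had the smallest p-values. In these 3 genes, and in Ppp1r1a, Slc12a3, Aqp4 and Fxyd2, every KRM RAS library was above every CD11chi RAS library, as were 11.7% of all genes. Against CD11cloMϕ, 5 of 37 tested were higher, where 3.28% of all genes were, with a median of 4.71. They were Gata3 (3.99 ± 0.59, adjusted p = 0.0183), Slc12a3 (5.26 ± 0.97, adjusted p = 0.0298), Wnk4, Scnn1g and Avpr2. In this comparison 7 of the 42 members were above in every KRM RAS library, and 16.7% of all genes were. The count was 0 in both comparisons without KRM RAS 2 or without KRM RAS 3, where 0% of all genes were higher, and without KRM RAS 1 it was 39 and 33, where 12.8% and 12.6% of all genes were higher. Against CD11chiMϕ it was also 0 without CD11chi RAS 2, 3 or 4, where at most 0.186% of all genes were higher, and 12 without CD11chi RAS 1 (8.09%). Against CD11cloMϕ it was 0 without CD11clo RAS 2 or 4, where at most 0.054% of all genes were higher, 1 without CD11clo RAS 1 (0.98%) and 5 without CD11clo RAS 3 (6.96%), where Gata3, Slc12a3 and Wnk4 were called in both fits. A block on replicate number gave 0 against CD11chiMϕ and 21 against CD11cloMϕ, and 1 fit over all 6 groups gave 13 and 15. With KRM RAS 2 and 3 both left out, 20 of the 35 tested members had a fold change below 0 against CD11chiMϕ and 25 of the 37 against CD11cloMϕ. These comparisons share the KRM RAS libraries with the one of RAS against Sham.

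Whether RAS moved the members differently in one population than in another was tested with an interaction term. Against the response of CD11chiMϕ, 0 of 39 members passed with edgeR, as 0% of 14137 genes did, although 37 had an unadjusted p under 0.05, as did 21.2% of all genes, and the smallest adjusted p was 0.098. DESeq2 called 31, all higher, where 7.41% of all genes were. Against the response of CD11cloMϕ, Scnn1a passed, with a difference of 5.92 ± 1.09 on the log2 scale (adjusted p = 0.0487, edgeR), where 0.223% of all genes were higher, and 27 members had an unadjusted p under 0.05, as did 23.7% of all genes. Scnn1a was at 10.3, 13.6, 6.45 and 12.9 CPM in CD11clo RAS, within or below the range of CD11clo Sham, while it rose in KRM. This call was lost without any single library other than KRM RAS 1 or CD11clo RAS 1, and without KRM RAS 1 there were 21 calls, where 16.1% of all genes were called.

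Promoter sequence was searched for motifs of factors known in nephron epithelium. RefSeq held a window, from 250 bases before to 50 after a gene start, for 31 of the 42 members, among 32851 windows on GRCm38.p6, and both strands were searched. The forkhead core TGTTTAC, which FOXI1 and other forkhead factors bind, occurred in 4 members (Slc12a1, Atp6v1b1, Egf and Avpr2) and in 3.65% of all windows. A paired half-site of TFCP2L1, written CCAG, 6 bases of any kind, CCAG, occurred in 4 members (Avpr2, Fxyd4, Tmem72 and Wnk1) and in 3.44% of all windows. The HNF1 palindrome, GTTAAT, any base, ATTAAC, was in 0 members and 0.009% of windows, and the ERR element, TCA followed directly by AGGTCA, in 0 members and 0.423%. Of the 250 upstream bases, 250 in Avpr2, 188 in Fxyd4, 155 in Tmem72 and 127 in Egf lay in annotated exons. In Slc12a1, Atp6v1b1 and Wnk1 these were 95, 27 and 17. A match describes the letters only, and a window without one says nothing on whether a factor binds.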

How the data were processed

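RNA-seq of flow-sorted macrophages was analysed in 21 libraries (SMART-Seq v4 ultra-low-input and Nextera XT kits). The authors aligned paired-end reads to mm10 with the OSA aligner and deposited estimated counts per Ensembl gene, which are expected counts with fractions (9.70 to 14.2% of values were not whole). A second deposited table, described as TPM, holds values on the log2 scale and has 38 of the 42 members. The column of KRM RAS 1 does not correspond between the tables (Spearman 0.688 over shared genes, against 0.908 to 0.948 in the other 20). Its counts matched the log2 column of another library better, at up to 0.892. The count table was used, which does not settle the identity of this library. The limma fits that include KRM RAS 1 use its unmatched log2 column. Whether counting used strand is not given in the sources used here.

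Counts were rounded and the 3730 lines that share a symbol were summed, leaving 34236 symbols from 37620 lines. Columns matched samples by name, with 0 left over. CPM scales counts by the library total, and CPM per kb divides it by the longest principal coding transcript in GENCODE vM21. Tests used edgeR 4.0.16 in R 4.3.3 (TMM, filterByExpr with a minimum count of 10 and total of 15, two-sided quasi-likelihood F test) on the groups compared, with Benjamini-Hochberg adjustment over all genes tested and a threshold of 0.05. SE was derived from the fold change and F. Alternatives were DESeq2 1.42.0, limma 3.58.1 for the log2 table (pseudocount 1 or 0.1), other size factors, no filter, a fold of 2 with unadjusted p, 1 fit over 6 groups, a replicate block and each library left out. Leaving out KRM RAS 2 and 3 together, the third Sham libraries together, and limma without KRM RAS 1 were chosen after seeing the data. The method was tested on simulated counts with an even spread between replicates and changes in well-counted genes only. That test does not cover members near 0 in Sham or libraries as unlike as the KRM RAS ones. Members and gene lists were chosen with earlier results of these data known. Members called and the 4 with the highest mean level in each segment were named with values. Replicate pairs all differed by more than counting error. Replicate numbers paired the populations in Sham (correlation of deviations 0.186 to 0.619), possibly as the same animals. In RAS they did so in part. KRM RAS 1 was closest to CD11chi RAS 1 (0.391) and CD11clo RAS 1 (0.546), and KRM RAS 3 to CD11chi RAS 3 (0.264). KRM RAS 2 was not closest to its namesakes (0.0944 and 0.0883), nor KRM RAS 3 to CD11clo RAS 3 (0.227). Between RAS and Sham the correlations ran from -0.262 to 0.385. Values of some genes of the lists are not reported here.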

Additional observations from a re-analysis of the deposited data

Results flagged for a closer look

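KRM Sham 3 stood apart from the other 3 KRM Sham libraries in its summed thick ascending limb genes (283.8 CPM), shared genes (264.1 CPM) and members without Wnk1 (594.9 CPM). The same held for Umod (121 CPM), Slc12a1 (46.7 CPM), Egf (79.7 CPM), Klk1 (26.2 CPM), Slc12a3 (3.71 CPM), Aqp2 (0.0538 CPM, a single count), Aqp3 (4.52 CPM), Fxyd2 (161 CPM), Cdh16 (69.7 CPM) and Tfcp2l1 (19.1 CPM). This library was also the most deeply sequenced and held the most proximal tubule RNA of its group, at 11871 CPM.

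CD11clo RAS 3 stood apart in its summed distal convoluted and connecting tubule genes (248.0 CPM, of which Wnk1 was 169 CPM) and in Egf (80.7 CPM). CD11clo RAS 4 did so in the summed principal cell genes (55.9 CPM), Aqp2 (19.0 CPM), Hsd11b2 (6.34 CPM) and Slc26a4 (0.906 CPM). In all, 19 of 63 groups of 4 libraries had a value set apart by Dixon's criterion, 13 of them in KRM Sham 3, where chance gives about 1 in 20. Members are not independent, since they come from the same libraries.

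In the interaction test the response of Scnn1a to RAS differed between KRM and CD11cloMϕ by 5.92 on the log2 scale (adjusted p = 0.0487, edgeR). The call was lost with the replicate block and without any single library other than KRM RAS 1 or CD11clo RAS 1. Against CD11chiMϕ, every KRM RAS library was above every KRM Sham library (mean 62.4 CPM in RAS) and every CD11chi RAS library below every CD11chi Sham library, and the interaction test of that difference gave an adjusted p of 0.098 (edgeR).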

How the results depend on the processing

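Counts of members called are given by comparison, each with the share of all genes called in either direction in parentheses. For RAS against Sham in KRM (18 with edgeR, 9.70%), 32 were called with no filter (7.77%), 25 with DESeq2 (24.6%), 27 with the fit over 6 groups (7.85%), 11 with limma on the log2 table (18.5%) and 24 at its lower pseudocount (18.9%), 38 with limma without KRM RAS 1 (52.5%), 4 with the replicate block (0.327%), and 0 without KRM RAS 2 and 3 (1.31%), where the lone RAS library is assumed to vary like the others, and leaving out each library gave 0 to 40. In CD11chiMϕ and CD11cloMϕ (0 each) a fold above 2 with an unadjusted p gave 4 (8.07%) and 1 (4.37%), and every other alternative gave 0. For KRM against CD11chiMϕ in Sham (3, 5.12%), the fold rule gave 7 (12.5%), the replicate block, which pairs the libraries here, 1 (0.718%), and single libraries left out 1 to 4. KRM against CD11cloMϕ in Sham (3, 41.8%) stayed at 3 or 4.

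For KRM against CD11chiMϕ in RAS (21, 9.23%), no filter and DESeq2 each gave 32 (6.65% and 20.8%), the fold rule 34 (20.8%), limma 6 with either pseudocount (4.08% and 3.59%), limma without KRM RAS 1 37 (16.3%), the fit over 6 groups 13 (14.7%), the replicate block 0 (0.764%), leaving out KRM RAS 2 and 3 gave 0 (0%), and leaving out each library 0 to 39. Against CD11cloMϕ in RAS (5, 9.17%), total library size gave 8 (11.4%), no filter 9 (5.20%), DESeq2 21 (24.4%), the fold rule 33 (20.3%), the fit over 6 groups 15 (12.7%), the replicate block 21 (8.48%), limma without KRM RAS 1 37 (25%), and each library left out 0 to 33. With limma on all libraries, at either pseudocount, 2 of the 5 members called by edgeR kept their call and 3 lost it.

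For the difference in response from CD11chiMϕ (0, 0%), DESeq2 gave 31 (8.64%), the fold rule 37 (18.9%), limma 1 with either pseudocount (0.949% and 0.214%), the fit over 6 groups 3 (0.11%), limma without KRM RAS 1 29 (7.80%), and each library left out 0 to 36. From CD11cloMϕ (1, 0.245%), total library size, no filter and the fit over 6 groups each gave 2 (0.555%, 0.338% and 0.40%), DESeq2 12 (10.2%), the fold rule 27 (16.4%), limma 7 or 6 by pseudocount (10.4% and 9.01%), limma without KRM RAS 1 33 (28.0%), the replicate block, the third Sham libraries left out and KRM RAS 2 and 3 left out 0 (0.00721%, 0% and 0.0343%), and each library left out 0 to 21. Fewer libraries also leave fewer degrees of freedom, and beyond that the cause of these shifts was not tested.

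With KRM RAS 2 and 3 left out, signs turned in 3 of 27 tested members against KRM Sham, 21 of 35 against CD11chiMϕ in RAS and 25 of 37 against CD11cloMϕ in RAS. Among the members called there, or named for their level in KRM, signs turned against KRM Sham in Slc26a4 (log2 -0.48) and Egf (-0.081), against CD11chiMϕ in RAS in Aqp3 (-1.31), Atp6v1g3 (-1.07), Avpr2 (-0.61), Cldn8 (-0.73), Hsd11b2 (-1.18), Mal (-0.32), Scnn1b (-3.01), Scnn1g (-1.65) and Slc26a4 (-1.35), and against CD11cloMϕ in RAS in Avpr2 (-0.75). Over those members and all alternatives, 596 values kept their direction and side of the threshold, 398 lost it, 36 gained it and 12 turned in sign. In comparisons other than KRM against CD11chiMϕ and CD11cloMϕ in Sham, the labels give the samples only a shared number. Some same-numbered RAS libraries deviated together and others did not, so whether the replicate block pairs them is unknown.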
